A study of Homo sapiens with 7 samples.

Results

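The region described here is a stretch of 320 kb on chromosome 12 (hg19 chr12:64780000-65100000) that holds, in order, the genes XPOT, TBK1 and RASSF3. Its members are all peaks of the deposited HOXB13-K13ac lists that share at least 1 bp with this stretch, 114 of the 148463 peaks in 6 lists. Of these, 41 came from replicate 1, 37 from replicate 2 against input, 3 from replicate 3 against input, 27 from a list whose name matches no library in the labels (called the unassigned list), 6 from replicate 2 against IgG and 0 from replicate 3 against IgG. The region was chosen by measured values of the same lists: a site at the XPOT promoter for its fold enrichment, and a run of neighbouring sites before RASSF3 for its number of sites. Fold enrichments and site numbers are therefore given as a description, without a test.

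The libraries came from C4-2B cells, a castration-resistant prostate cancer line derived from LNCaP, kept in medium with charcoal-stripped serum and given no other treatment. HOXB13-K13ac chromatin was precipitated with an antibody against the homeobox factor HOXB13 acetylated at lysine 13, and the labels name 3 such libraries, 2 with IgG and 2 of input. All come from 1 line, and the labels do not say whether replicates were separate cultures, so spread between them may be technical. Replicate 1 belongs to library series 2898 and replicates 2 and 3 to series 3047. The lists hold no expression values, so the identity of the line was not checked here. Read depth is unknown. Each peak has a single fold enrichment, the authors' ratio to background at the summit, with no error of its own.

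HOXB13 is a transcription factor of the posterior HOX group that binds DNA through its homeodomain and marks the prostate lineage. Factors of this kind occupy promoters, where transcription begins, and distal enhancers, which can lie close together. A run of sites here means only neighbouring sites, and the lists hold no enhancer mark. XPOT encodes exportin-t, the receptor that carries mature tRNA out of the nucleus with the GTPase Ran. TBK1 encodes a serine/threonine kinase that activates the interferon factor IRF3 downstream of nucleic acid sensors and phosphorylates autophagy receptors such as optineurin. RASSF3 encodes a small member of the Ras association domain family, which binds the MST kinases of the Hippo pathway through its SARAH domain.

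The stretches of DNA around the starts of these genes are shown because the highest peaks of the region lay close to these starts. They are the RefSeq promoter windows on GRCh38.p14, all on the plus strand and 300 bases long, from 250 bases before to 50 after the start. All 3 genes matched the table. The windows are chr12:64404142-64404441 for XPOT, chr12:64451870-64452169 for TBK1 and chr12:64610245-64610544 for RASSF3. These coordinates belong to GRCh38, whereas the peaks are on hg19, so the letters name the promoters and no peak was placed on them. By the approximate hg19 starts, the highest summit of each list at each gene start lay 233 to 392 bp after it. That is beyond the 50 bases shown after the start, so the letters are not those under the highest summits. Capitals mark matches to the searched motifs.
XPOT: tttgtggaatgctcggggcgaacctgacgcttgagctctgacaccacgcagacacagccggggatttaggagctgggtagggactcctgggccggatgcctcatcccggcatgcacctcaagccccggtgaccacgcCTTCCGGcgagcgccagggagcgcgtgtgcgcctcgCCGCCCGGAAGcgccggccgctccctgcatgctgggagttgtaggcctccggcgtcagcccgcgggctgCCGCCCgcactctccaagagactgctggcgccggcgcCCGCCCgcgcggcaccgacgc
TBK1: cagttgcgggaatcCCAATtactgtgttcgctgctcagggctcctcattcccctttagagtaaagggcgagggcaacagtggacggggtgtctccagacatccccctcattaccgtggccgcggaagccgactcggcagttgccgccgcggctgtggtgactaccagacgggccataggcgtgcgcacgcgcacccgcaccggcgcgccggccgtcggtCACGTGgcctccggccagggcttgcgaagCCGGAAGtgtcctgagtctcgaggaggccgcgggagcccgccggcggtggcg
RASSF3: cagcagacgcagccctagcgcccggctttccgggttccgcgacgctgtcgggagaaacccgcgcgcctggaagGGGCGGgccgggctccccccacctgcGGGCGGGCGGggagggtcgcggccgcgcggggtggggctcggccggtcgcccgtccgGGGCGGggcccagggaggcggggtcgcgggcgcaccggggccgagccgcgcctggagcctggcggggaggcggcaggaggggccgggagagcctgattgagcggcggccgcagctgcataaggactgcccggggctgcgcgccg

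The 3 promoters had a content of G and C above the median of all promoters. GC content was 71.7% for XPOT, 68.3% for TBK1 and 81.0% for RASSF3, compared with a median of 58.7% over 35116 promoter windows of the table. The observed over expected ratio of CpG dinucleotides was 0.94, 1.00 and 0.94 in the same order, against a median of 0.58. As high a GC content or higher was found in 16.6% of all promoters for XPOT, 24.4% for TBK1 and 1.81% for RASSF3.

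In all, 11 motifs were searched on both strands, and 4 of them had a match in these promoters. The ETS letters CCGGAAG, the core bound by the ETS family, occurred 2 times in XPOT, beginning at −113 and −73 from the start, and 1 time in TBK1, beginning at −2. They occurred in 10.3% of all promoters. The GC box GGGCGG, the element of SP factors, occurred 3 times in XPOT and 4 times in RASSF3, and in 45.0% of all promoters. One of the XPOT matches overlapped an ETS match, and a pair of the RASSF3 matches overlapped each other. TBK1 had 1 CCAAT box (CCAAT, 34.6% of promoters) and 1 E-box (CACGTG, 7.26%). Both HOX forms searched (CCAATAAA, 0.934% of promoters, which contains CCAAT, and TTTACGAG, 0.137%) had no match in the 3 windows. The same held for forkhead TGTTTAC (3.42%), AP-1 TGACTCA (4.95%), CRE TGACGTCA (1.85%), the androgen receptor letters AGAACA (14.8%) and the GATA-factor letters AGATAA (10.3%). These are matches of letters in 300 bases and say nothing of binding.

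Sites were built by merging the peaks of the 3 replicate lists, and a merged region with peaks of at least 2 libraries is called a replicated site. The region held 45 merged regions, of which 28 were replicated, while 41.2% of all merged regions were replicated. Replicates 1 and 2 had peaks in all 28 sites, as they did in 26760 of the 27046 replicated sites of the genome. Replicate 3 joined them at 1 (3.57%), the XPOT promoter, while 17.0% of all replicated sites were in all 3 libraries. Of the other 17 merged regions, 7 were peaks of replicate 1 alone, 8 of replicate 2 alone and 2 of replicate 3 alone.

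**Figure D1:**
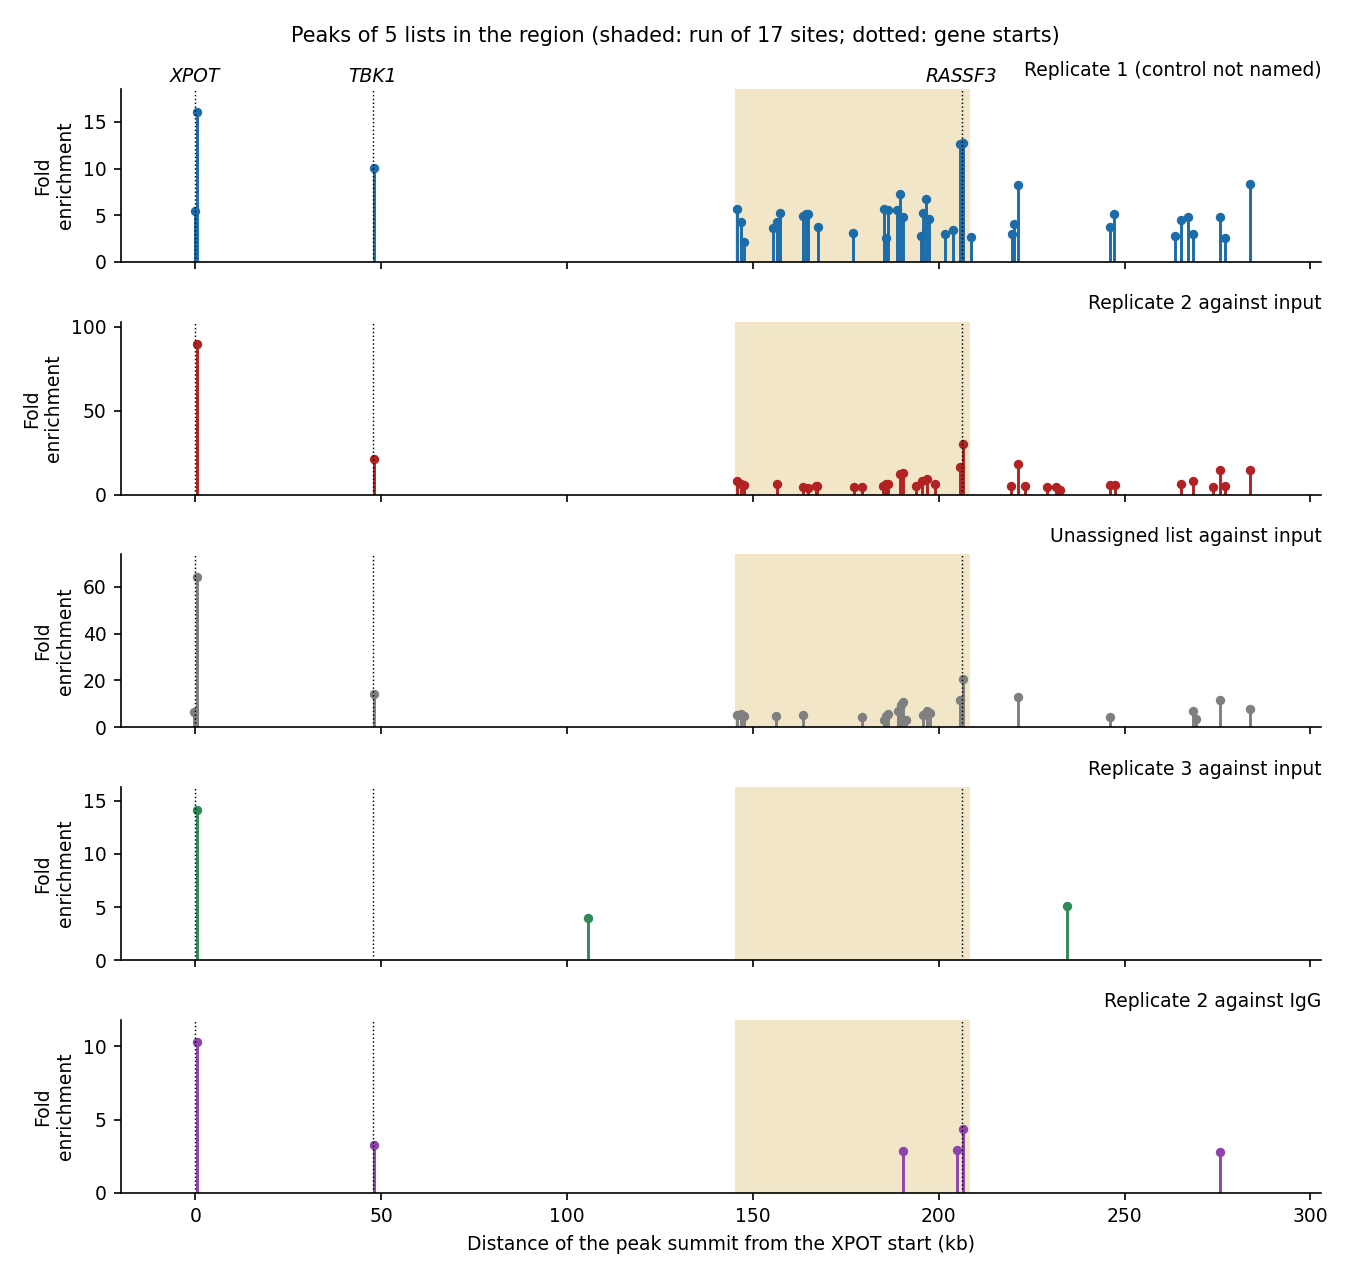
Fold enrichment at the summit (y axes, a linear scale of its own for each list) of every peak of 5 lists, by distance from the XPOT start in kb. Single tall peaks mark the XPOT and TBK1 starts, the shaded run of 17 sites ends across the RASSF3 start, and replicate 3 has 3 peaks, with a fold enrichment of 14.2 at XPOT.

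The sites fell into isolated peaks at the starts of XPOT and TBK1, a run that ended across the RASSF3 start, and scattered sites after it. Between the XPOT and TBK1 sites lay 45.6 kb without a peak of any replicate list. After the TBK1 site, a further 96.8 kb held no peak of replicates 1 or 2 and a single replicate 3 peak. This second gap covered most of the TBK1 gene, which ends at about 64895899 on hg19, and the 47.7 kb from there to the run. The nearest peak outside the region was 112 kb before it in replicates 1 and 2, but 2.09 kb before it in replicate 3. After the region, the nearest peak was 31.2 kb away in replicate 1, 31.0 kb in replicate 2 and 74.3 kb in replicate 3. The map of fold enrichment along the region shows these gaps.

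The XPOT promoter site lay from 64797081 to 64799846 and spanned the XPOT start, at about 64798130. In replicate 2 against input it was a single peak of 2766 bp with a fold enrichment of 89.5 (−log10 q 300.2), first in its list by fold and by p. In replicate 1 the site held 2 peaks: one of 1282 bp with a fold enrichment of 16.1 (−log10 q 169.8), and one of 598 bp with 5.46. In replicate 3 it was a peak of 434 bp with a fold enrichment of 14.2 (−log10 p 26.6). All 3 libraries thus had a peak there, and their folds ran from 14.2 to 89.5.

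The standing of the XPOT peak within its own list differed between libraries. By fold enrichment it ranked first of 45216 peaks in replicate 2, 7th of 18232 in replicate 3 and 988th of 41303 in replicate 1. By p it ranked 110th in replicate 1 and 8th in replicate 3. The replicate 1 list names no control, so its ratio may refer to another background than that of the other lists. Ordered by the lowest of its 3 fold enrichments, the site ranked 7th of the 4591 sites with peaks in all 3 libraries, and replicate 3 set that lowest value.

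The unassigned list and replicate 2 against IgG also had the site near the top. In the unassigned list against input, a peak of 1669 bp with a fold enrichment of 64.1 was first of 36205 by fold and by p, and a second peak of 698 bp had 6.47. In replicate 2 against IgG, a peak of 1107 bp with a fold enrichment of 10.3 (−log10 q 10.4) was second of 7506 by fold and 8th by p. Neither is an independent library: the IgG list uses the reads of replicate 2, and the source of the unassigned list is unknown. The replicate 3 list against IgG, which holds 1 peak in the genome, had none here.

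The highest summits of the XPOT site lay just downstream of the start. They were about 322 bp after it in replicate 1, 392 bp in replicate 2, 317 bp in replicate 3, 324 bp in the unassigned list and 392 bp in replicate 2 against IgG. In replicate 1 the 2 peaks left 167 bp between them, from 112 bp before to 56 bp after the start. The unassigned list left 158 bp at the same place, whereas the replicate 2 peak ran through without a break.

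**Figure D2:**
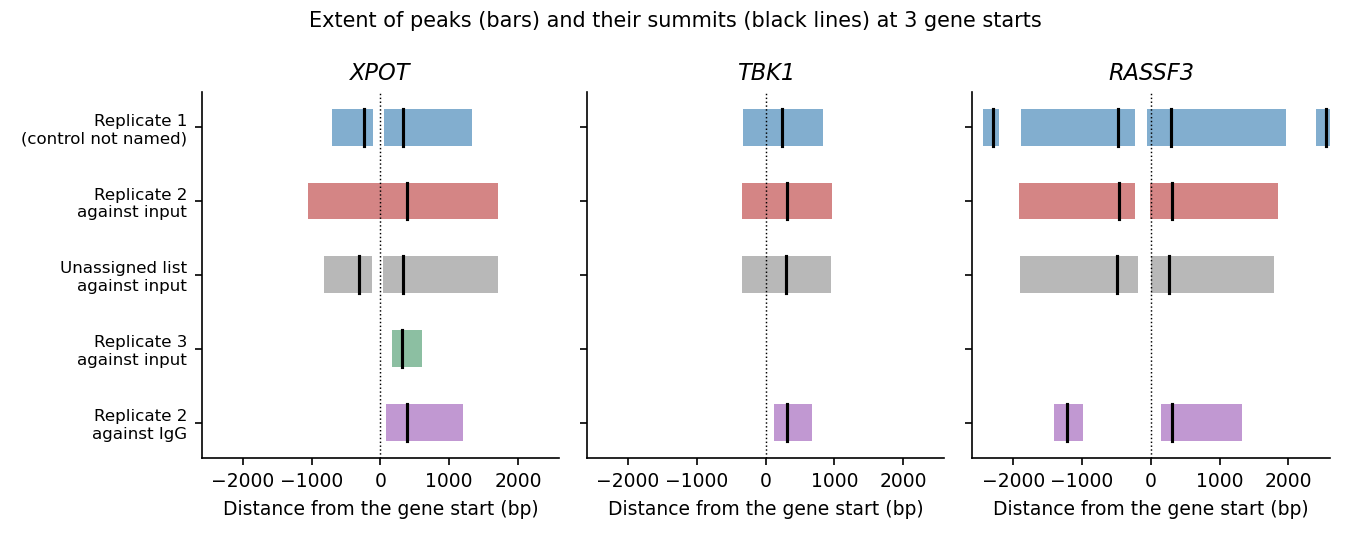
Extent of each peak (bars) and its summit (black lines) by distance from the start of XPOT, TBK1 and RASSF3 in bp, one row per list. The highest peak downstream of each start has its summit 233 to 392 bp after it in each list with a peak there, and replicate 3 has a peak at XPOT alone.

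TBK1 had 1 site, from 64845497 to 64846807, across its start at about 64845840. The fold enrichment was 10.1 in replicate 1 and 21.0 in replicate 2, over widths of 1167 bp and 1311 bp, and replicate 3 had no peak. The unassigned list had a fold enrichment of 14.2 there. Against IgG, the replicate 2 peak reached a fold enrichment of 3.25 (−log10 q 1.01), short of a q of 0.05. Summits lay about 233 bp after the TBK1 start in replicate 1, 309 bp in replicate 2 against either control and 303 bp in the unassigned list. No other replicated site lay within TBK1.

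At RASSF3, 2 sites flanked the start, at about 65004293, and they were the last of the run. The upstream one, from 65002380 to 65004061, had a fold enrichment of 12.6 in replicate 1, 16.3 in replicate 2 and 11.6 in the unassigned list. The downstream one, from 65004240 to 65006251, had 12.7, 29.9 and 20.6 in the same lists. Replicate 3 had no peak in either. The 2 peaks were separated in every one of these lists, by 183 bp in replicate 1, 216 bp in replicate 2 and 193 bp in the unassigned list, and each gap ended close to the start. Downstream summits lay about 297 bp, 301 bp and 266 bp after it, and upstream summits at −475, −463 and −495 bp from it. The bars of peak extent at the 3 starts show the breaks at XPOT and RASSF3.

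The 3 gene starts kept 1 order in the 4 lists that had peaks at all of them: XPOT highest, then RASSF3, then TBK1. The 4 lists are not independent, since replicate 2 against IgG uses the reads of replicate 2 and the source of the unassigned list is unknown. XPOT was chosen for its fold enrichment, so its first place is a description. The size of the step was not alike. XPOT stood over TBK1 by a ratio of fold enrichments of 1.60 in replicate 1, 4.27 in replicate 2, 4.51 in the unassigned list and 3.16 in replicate 2 against IgG. RASSF3 over TBK1 varied less, at 1.26, 1.43, 1.45 and 1.33. These are ratios of single peak values, so no error can be set beside them.

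The run extended for 62.7 kb, from 64943582 to 65006251, and began 60.7 kb before the RASSF3 start. It was formed by stitching replicated sites no more than 10 kb apart, and its 17 sites covered 19.4 kb, or 30.9% of its length. The largest gap inside it was 9.10 kb, and the next site after it was 11.1 kb away, so both lie near the stitching distance. Replicate 1 had 25 peaks in the run, replicate 2 against input 21, the unassigned list 18 and replicate 3 none. Another 7 regions inside it were peaks of 1 library, 4 of replicate 1 and 3 of replicate 2, with folds of 3.03 to 6.37.

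In the gene table on GRCh38.p14 the RASSF3 record begins directly after TBK1 and the lncRNA gene LOC105369803, ahead of the lncRNA genes LOC107984521 and RASSF3-DT. The promoter window of the same table lies later than these. Whether the run is between genes or in an intron of a longer RASSF3 transcript therefore depends on the gene model. It was not settled here, as only the order of the gene records was used.

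Within the run, fold enrichment was low over its first part and highest at its end. Before the pair at the RASSF3 start, 15 sites had fold enrichments of 2.16 to 7.25 in replicate 1 (median 4.95) and of 4.12 to 13.0 in replicate 2 (median 6.29). Over all replicated sites of the genome the medians were 5.83 in replicate 1 and 9.37 in replicate 2, above both. For the strongest of the 15, 36.8% of all replicated sites had at least its fold in replicate 1, and 31.3% in replicate 2. For the XPOT site, the same share was 3.62% in replicate 1, and in replicate 2 no other site was as high.

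Read with breaks of over 5 kb, the run consisted of 6 groups. The first, from 64943582 to 64946175, held 3 sites with peak folds of 2.16 to 5.68 in replicate 1, 5.57 to 8.13 in replicate 2 and 4.78 to 5.55 in the unassigned list. Its first site, where the run begins, had 5.68 in replicate 1 and 8.13 in replicate 2. A single site followed from 64953392 to 64954787, with 4.26 in replicate 1 and 6.29 in replicate 2. The median peak folds of the whole lists were 4.67 in replicate 1 and 6.50 in replicate 2, so that these 4 sites lay on both sides of the middle of their lists.

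The third group, from 64961262 to 64965881, held 3 sites with peak folds of 4.12 to 5.09 in replicate 2. Replicate 1 had 3.74 to 5.12 there. The fourth group was 1 site of 364 bp, from 64974980 to 64975343, with 3.07 in replicate 1 and 4.63 in replicate 2 and no peak in the unassigned list. These 4 sites had the lowest folds of the run in replicate 2, and 1 of them was in the unassigned list.

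The fifth group held the most sites, 7 in 13.3 kb from 64982891 to 64996218. Its highest peak in replicate 1 was 7.25, at a site from 64986813 to 64988148 where replicate 2 had 12.2 and the unassigned list 9.51. Its highest in replicate 2 was 13.0, at the next site, from 64988322 to 64990081, where replicate 1 had 4.77 and the unassigned list 10.9. The strongest site of the group was thus not the same in both replicates. This second site was the only one of the 15 with a replicate 2 peak against IgG, of fold enrichment 2.88. The sixth group was the pair at the RASSF3 start.

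**Figure D3:**
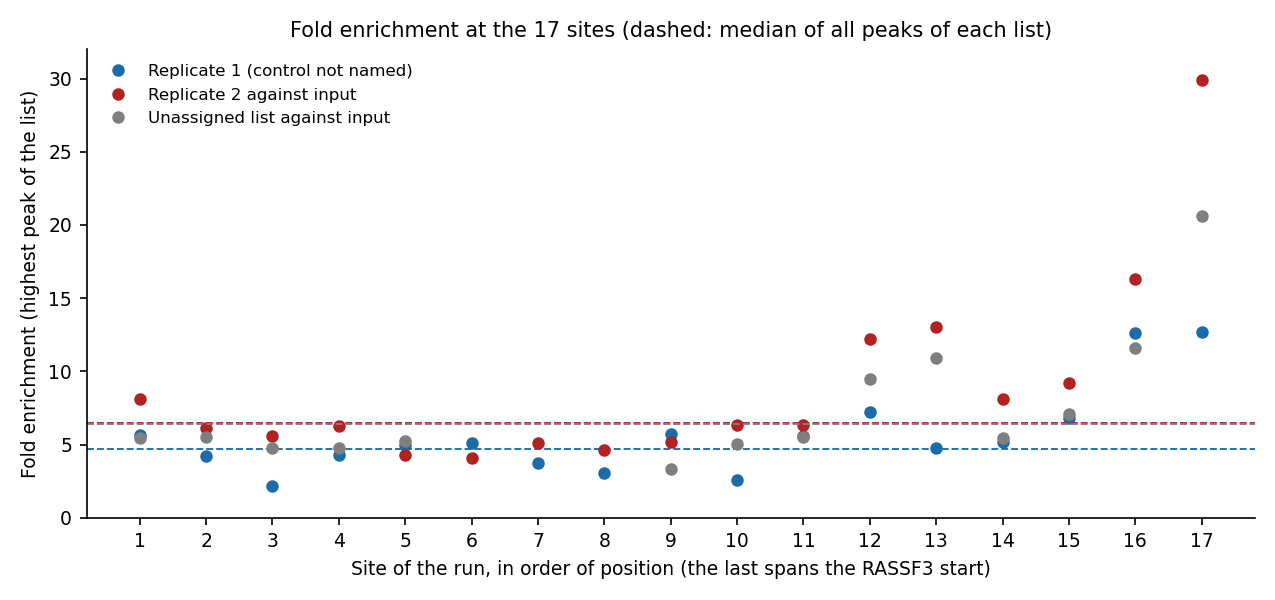
Fold enrichment (y axis, linear from 0, highest peak of each list) at the 17 sites of the run in order of position, for replicate 1, replicate 2 and the unassigned list; dashed lines are the medians of all peaks of each list (4.67, 6.50 and 6.39). Sites 16 and 17, at the RASSF3 start, are the 2 highest in each list, and sites 12 and 13 stand out before them in replicate 2.

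Replicates 1 and 2 placed their summits close together at most sites of the run. The distance between their highest summits had a median of 69 bp over the 17 sites, with quartiles of 31 and 165 bp, compared with a median of 80 bp over the 26760 replicated sites with peaks of both. At the pair around the RASSF3 start it was 12 bp and 4 bp, and the largest distance was 611 bp, at a site from 64964873 to 64965881 where replicate 2 had 2 peaks. The fold enrichments of the 17 sites had a Spearman correlation of 0.59 between replicates 1 and 2, and of 0.41 over the 15 sites before the RASSF3 pair. Over all 26760 sites it was 0.71. These are descriptions across neighbouring sites that share their libraries. In 14 of the 17 sites the ratio was higher in replicate 2, as it was in 23630 of the 26760.

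Sites of the run were set beside all replicated sites for their peaks in further lists. Of these, the unassigned list took no part in defining the sites, but its source is unknown and it may share reads with a replicate. The IgG list shares the reads of replicate 2, and replicate 3 was one of the merged lists. In the unassigned list 14 of 17 had a peak (82.4%, exact 95% binomial interval 56.6 to 96.2), near the 86.9% of all replicated sites. Against IgG in replicate 2, 3 of 17 had a peak (17.6%, 3.80 to 43.4), compared with 23.2% of all. Of these 3, 1 had a q of 0.05 or less, the site downstream of the RASSF3 start with a fold enrichment over IgG of 4.33, or 5.88% (0.149 to 28.7), compared with 5.55% of all replicated sites. No site of the run was in all 3 libraries, which by the limit of 3 counts allows a share of up to 17.6% (19.5% by the exact interval), while 17.0% of all replicated sites were. All 4 exact intervals took in the share of all sites. Such intervals cover counting error only, and neighbouring sites are not independent.

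Peaks whose −log10 q was 5 or more made up 80.0% of the 25 replicate 1 peaks of the run and 66.7% of the 21 of replicate 2. The shares in the whole lists were 80.7% and 67.2%. In the whole replicate 3 list, 6.28% of peaks reached that −log10 q, and its number of peaks in the region could not be set against its depth.

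The run was also compared with the other clusters of 10 or more replicated sites, 25 in all including itself. Its number of sites was exceeded by 3 clusters and equalled by 1 other. The median fold enrichment of its sites in replicate 2, 6.33, was lower than in 22 of the 25, whose middle value was 8.62. In replicate 1 its median of 5.12 was the middle value of the 25. The highest site of the run in replicate 2, 29.9 at the RASSF3 start, lay near the middle value of 28.9. No replicate 3 peak was present in 7 of the 25 clusters (28.0%), the run among them. With a single run there is no replicate of it, and no difference from the other clusters was tested.

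**Figure D4:**
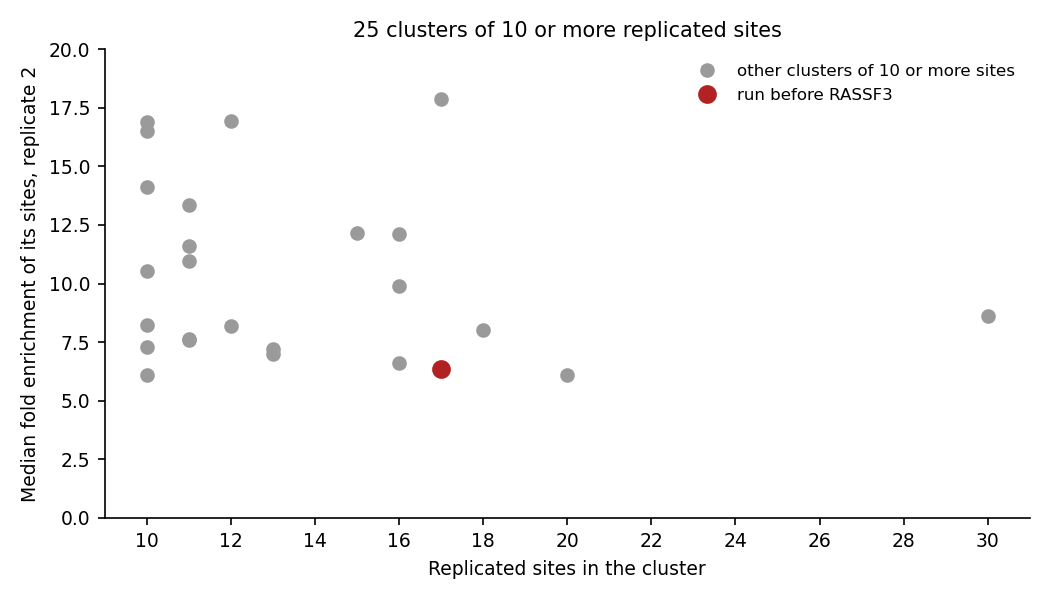
Number of replicated sites (x axis) and median fold enrichment of those sites in replicate 2 (y axis, linear from 0) for the 25 clusters of 10 or more sites; each point is 1 cluster. The run before RASSF3, with 17 sites and a median of 6.33, lies below 22 of the 25.

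After the run, 9 replicated sites were spread over the rest of the region, on the RASSF3 side of the start. Those highest in replicate 2 lay from 65018216 to 65020192, from 65073355 to 65074229 and from 65081414 to 65083113. The first, 13.9 kb after the RASSF3 start, had a fold enrichment of 8.20 in replicate 1, 18.5 in replicate 2 and 12.9 in the unassigned list. The second, 69.1 kb after it, had 4.85, 14.8 and 11.7, and a replicate 2 peak against IgG with a fold of 2.81 and a −log10 q of 0. The third, 77.1 kb after it, had 8.30, 14.7 and 7.66. All 3 exceeded in replicate 2 every one of the 15 sites of the run before the RASSF3 pair, whose highest value was 13.0.

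The other 6 of these sites had fold enrichments of 2.55 to 5.08 in replicate 1 and of 4.91 to 8.16 in replicate 2. The site from 65017344 to 65017923 had 3.04 in replicate 1 and 4.91 in replicate 2. The sites from 65043993 to 65044669 and from 65044860 to 65045775 had 3.72 and 5.08 in replicate 1 and 5.92 and 5.55 in replicate 2. From 65062818 to 65063610 the values were 4.53 and 6.60, and from 65066315 to 65067537 they were 3.02 and 8.16. The site from 65074474 to 65075248 had 2.55 and 5.24, with summits of the 2 libraries 1 bp apart. Of all 9, 5 had a peak in the unassigned list (55.6%, exact 95% interval 21.2 to 86.3), compared with 86.9% of all replicated sites, a share just above that interval. Here too the interval covers counting error only, the neighbouring sites are not independent, and no difference was tested. Against IgG, 1 had a peak (11.1%, 0.281 to 48.2), compared with 23.2% of all, and its q was above 0.05.

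The single-library peaks after the run were below their list's median in replicate 2, on both sides of it in replicate 1 and above it in replicate 3. Replicate 2 had 5 with folds of 2.87 to 5.10, replicate 1 had 3 with folds of 2.72 to 4.85, and replicate 3 had 1, from 65032649 to 65032819, with 5.07. The other peak of replicate 3 alone, from 64903698 to 64903867, had a fold enrichment of 4.00. It lay beyond the end of TBK1, and neither was within a peak of another list.

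Seen together by position, the 4 replicated sites at the 3 named gene starts (XPOT, TBK1 and the pair at RASSF3) had fold enrichments of 10.1 to 16.1 in replicate 1 and 16.3 to 89.5 in replicate 2. The other 24 had 2.16 to 8.30 and 4.12 to 18.5. The 2 sets did not overlap in replicate 1, and in replicate 2 one site elsewhere, with 18.5, exceeded the lowest of the gene starts. This depends on counting the upstream RASSF3 site, which ends before the start, among the gene starts. Counted elsewhere, its 12.6 in replicate 1 would exceed the 10.1 of TBK1. In replicate 2 the 18.5 would then lie below all gene starts, the lowest being the 21.0 of TBK1. Over the genome, 18.9% of replicated sites with a replicate 1 peak had at least the 10.1 of TBK1. In the replicate 2 list, 12.4% of peaks reached 16.3. The XPOT site was chosen for its fold. Sites at other gene starts, of the region or the genome, were not examined, so the other 24 may include some. The IgG list uses the reads of replicate 2, so its calls are not independent of the replicate 2 folds. Replicate 2 had a peak against IgG at all 4 gene-start sites and at 2 of the other 24, while 23.2% of all replicated sites had one. Only 2 of these 6 peaks had a q of 0.05 or less, those at XPOT and downstream of the RASSF3 start. The upstream RASSF3 site, with a fold enrichment over IgG of 2.93, had a −log10 q of 0.686. This grouping was made after the values had been seen, with approximate gene positions, and it was not tested.

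The XPOT site was also set beside other strong sites for the presence of a large cluster nearby. Of the 4591 sites with peaks in all 3 libraries, 116 (2.53%) had a cluster of 10 or more replicated sites within 200 kb. Of the 15 that ranked highest by their lowest fold enrichment, the XPOT site was the only one with such a cluster, and those 15 reached down to a lowest fold of 12.6. It lay 144 kb before the run, with TBK1 between them. The region was selected on both features, so their joint presence here is a description.

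The number of sites in the run depended on how sites were joined. Its remaining part with most sites held 5 sites when summits had to lie within 100 bp or peaks had to share 0.5 of both widths, and 7 when each peak needed a −log10 q of 5 or more, or with stitching within 5 kb. Without replicate 1 or replicate 2 no site of it could remain, since a site needed 2 libraries and replicate 3 had no peak in the run.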

How the data were processed

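ChIP-seq peak lists of C4-2B libraries were used, on hg19 per the submitters' processing notes, which name CASAVA 1.4, BWA, Bowtie2 and MACS2 without their roles. Each deposited peak has a fold enrichment, a ratio to its control. The deposited −log10 p-values and −log10 q-values were used unchanged. Thresholds, the filter and any pooling were not stated in the labels used here. Depth is unknown, so no precision follows from it. Lists were tied to libraries by the spelling of the labels. Replicates 1 and 3 differ there by 1 punctuation mark, and if exchanged their values would stay with each list. 1 list matched no library.

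Peaks were merged at 1 bp shared and stitched within 10 kb (Python 3.11.15, NumPy 2.4.6, pandas 2.3.3, SciPy 1.17.1), with code tested on simulated lists. The members, lists and motifs were chosen with earlier results of these data known. Named were the 3 genes, the XPOT site, each replicated site of the region and the extremes of each list. Gene positions on hg19 are approximate and came with the definition of the region. RefSeq promoters and gene names are those of GRCh38.p14. Summit sequences and the lists of related genes were not analysed here, as both need hg19. Alternatives changed the overlap, the q threshold, the stitching and the libraries used.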

Additional observations from a re-analysis of the deposited data

Results flagged for a closer look

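The unassigned list, whose name matches no library, is outside the replicate comparisons, and it held 27 peaks in the region, of which 18 lay in the run and 1 in no replicated site. That one, with a fold enrichment of 4.40, overlapped a peak of replicate 2 alone from 64977276 to 64977804. Peak lists of the IgG or input libraries were not used here.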

How the results depend on the processing

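Under stricter joining the run broke up, and its length and number of sites are then those of the part with most sites, while counts in other lists cover all replicated sites between its original ends. With peaks sharing 0.5 of both widths, 11 sites remained there, 9 of them in the unassigned list, the part with most sites held 5 over 15.1 kb, and only 1 library remained linked at the XPOT site. With summits within 100 bp, 11 remained and that part held 5 over 18.7 kb. When each peak needed a −log10 q of 5 or more, there were 18 replicated sites in the region and 10 between the run's ends, 9 of these in the unassigned list and 0 against IgG, and the part with most sites held 7 over 22.0 kb. That threshold also cut the unassigned and IgG lists. As the highest −log10 q against IgG in the run was 1.92, no IgG call could remain. Stitching within 5 kb gave 7 sites over 13.3 kb. With the unassigned list in place of replicate 3, 14 run sites were in all 3. With IgG peaks of q at most 0.05, 1 run site was called. Leaving out 1 replicate gave 1 to 28 sites in the region, 0 to 17 in the run, 0 to 3 of them against IgG, 0 to 14 in the unassigned list, a run length of 62.7 kb where sites remained, and 2 libraries at the XPOT site. Each lowest number came without replicate 1 or without replicate 2, where both remaining libraries were required. The causes were not tested. No paired analysis was possible because the lists give no values for the IgG and input libraries, and no test was made. Depth is unknown, so a missing replicate 3 peak cannot be told apart from low depth.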
